A study of Mus musculus with 16 samples.

Results

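The metallothionein genes Mt1 and Mt2 and 8 antioxidant genes best known as targets of the transcription factor NRF2 (Hmox1, Nqo1, Gclc, Gclm, Srxn1, Txnrd1, Slc7a11 and Gpx2) were followed across pregnancy and particle exposure in mouse lung. These 10 genes were taken by symbol from the 18193 genes named on the array, each through its single-symbol probe set with the highest mean over 16 arrays. RNA came from whole lungs of female BALB/c mice, 19 h after 1 intranasal insufflation under light halothane anaesthesia, and each group held 4 arrays. The groups were pregnant mice given 50 µg titanium dioxide (TiO2) particles, pregnant mice given phosphate-buffered saline (PBS, the vehicle), non-pregnant mice given the same TiO2 dose, and non-pregnant mice given PBS. Pregnant mice were at day 14 of gestation. The particles had been baked to remove endotoxin, and no age is given for the mice. The comparisons ask whether pregnancy alters the lung response to particles regarded as inert. All 4 groups shared the anaesthesia, the insufflation and the strain, and no untreated mouse was analysed here.

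Metallothioneins are small cysteine-rich proteins that bind zinc, copper and cadmium and can take up oxidants; the zinc-sensing factor MTF1 drives Mt1 and Mt2 through metal response elements in their promoters, and glucocorticoids and inflammatory cytokines also induce them. NRF2, encoded by Nfe2l2, is held for degradation by KEAP1 until oxidants or electrophiles free it, and with a small MAF protein it then binds antioxidant response elements. In lung, both systems are known for their induction by metals, smoke and other inhaled oxidants. Among the 8 NRF2 targets, Hmox1 degrades haem and Nqo1 reduces quinones. Slc7a11 imports cystine, Gclc and Gclm form the enzyme that makes the glutathione precursor, and Gpx2 uses glutathione to reduce peroxides. Srxn1 repairs over-oxidised peroxiredoxins and Txnrd1 reduces thioredoxin.

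The promoters of 3 genes are shown because Mt1 and Srxn1 are the members that passed the test for pregnancy below, and Mt2 is the neighbour of Mt1 on chromosome 8. Each window is 300 bases, from 250 before to 50 after the annotated start, on the plus strand of GRCm38.p6, from RefSeq: chr8:94178839-94179138 for Mt1, chr8:94172368-94172667 for Mt2 and chr2:152105274-152105573 for Srxn1. Capitals mark matches on either strand to the metal response element core (TGCACNC or TGCGCNC), to an antioxidant response element core (TGACNNNGC) or to an NRF2-MAF core (TGANTCAGC).
Mt1: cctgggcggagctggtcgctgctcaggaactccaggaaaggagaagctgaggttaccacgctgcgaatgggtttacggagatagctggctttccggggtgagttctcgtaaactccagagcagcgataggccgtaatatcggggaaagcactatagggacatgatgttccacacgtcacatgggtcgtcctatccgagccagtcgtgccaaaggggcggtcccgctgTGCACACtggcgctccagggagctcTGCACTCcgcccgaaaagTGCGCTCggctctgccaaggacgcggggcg
Mt2: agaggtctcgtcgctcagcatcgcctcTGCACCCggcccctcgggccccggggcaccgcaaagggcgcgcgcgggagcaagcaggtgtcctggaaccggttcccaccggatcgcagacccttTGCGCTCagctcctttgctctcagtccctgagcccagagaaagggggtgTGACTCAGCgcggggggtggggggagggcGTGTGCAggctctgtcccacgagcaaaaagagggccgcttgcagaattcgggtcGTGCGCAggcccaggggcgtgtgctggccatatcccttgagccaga
Srxn1: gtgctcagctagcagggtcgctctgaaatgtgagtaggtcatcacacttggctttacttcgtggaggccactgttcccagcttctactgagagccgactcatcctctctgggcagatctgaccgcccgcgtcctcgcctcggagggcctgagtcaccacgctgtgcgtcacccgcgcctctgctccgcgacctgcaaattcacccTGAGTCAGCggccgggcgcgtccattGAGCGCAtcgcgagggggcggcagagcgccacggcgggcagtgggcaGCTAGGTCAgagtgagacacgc
The Mt1 window held 3 metal response element matches, the Mt2 window 4 and the Srxn1 window 1. Of 32851 RefSeq windows of this length, 25.7% held at least 1, 1.97% at least 3 and 0.517% at least 4. The NRF2-MAF core matched once in Mt2, 79 bases before the start and on the same letters as its antioxidant response element match, and once in Srxn1, 45 bases before the start. It was present in 1.19% of the windows. The antioxidant response element core, present in 12.4% of windows, matched once in Mt2, Srxn1, Gclm and the second of 3 Txnrd1 windows; Gclm also held 3 metal response element matches, 1 of which overlaps the antioxidant one. Windows were matched for 8 of the 10 genes, 10 windows in all, and these matches describe letters only.

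Values are log2(intensity + 16) after quantile normalization, which understates differences at low signal, and each probe set is set against itself only. The trimmed mean of the deposited intensities ran between 137 and 263 per array, a ratio of 1.92, and the number of arrays limits the precision. Correlations between arrays of a group were 0.939 to 0.991. For non-pregnant PBS replicate 2 the label fields conflict, one calling the mouse pregnant and another non-pregnant, and it was kept as non-pregnant because the design text gives 4 arrays per group. Pregnant TiO2 replicate 2 had almost none of the squamous epithelium and striated muscle signal found on the other arrays (summed normalized intensity of 6 squamous markers 98, against at least 7385 elsewhere), and non-pregnant PBS replicates 3 and 4 had high thymus marker sums (2624 and 3777, against at most 302 elsewhere). Lung markers were present on all arrays: the summed intensity of 5 of 6 alveolar type 2 markers lay between 34439 and 36568 in pregnant TiO2, 36045 and 36793 in pregnant PBS, 35495 and 36851 in non-pregnant TiO2, and 32437 and 37175 in non-pregnant PBS. Whether each array is 1 mouse is not stated, so p-values measure the spread between these samples.

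Of the 10 genes, 9 were above their array's median on all 16 arrays and entered the test. Slc7a11 was above it on none and did not. Averaged over both exposures, Mt1 and Srxn1 were higher in pregnant than in non-pregnant lung (2 of 9 members, against 4.42% of 12369 genes in either direction and 3.19% higher), and 7 of 9 members lay above 0, against 53.9% of all genes. After TiO2, Srxn1 alone passed (1 of 9, against 1.88% of genes), and after PBS none did (0 of 9, against 1.04%). With TiO2 against PBS no member passed in pregnant or in non-pregnant mice, nor averaged over both, nor in the difference between these responses, and in each of these comparisons 0% of genes passed in limma. With the intensities as deposited, which differ in brightness between arrays, 0 of 9 members passed in any comparison. Adjusted p-values of this main fit are limma values with Benjamini-Hochberg adjustment over all 12369 genes of a comparison, with a threshold of 0.05. Fits with other arrays, filters or probe sets were adjusted in the same way over their own genes or probe sets.

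**Figure D1:**
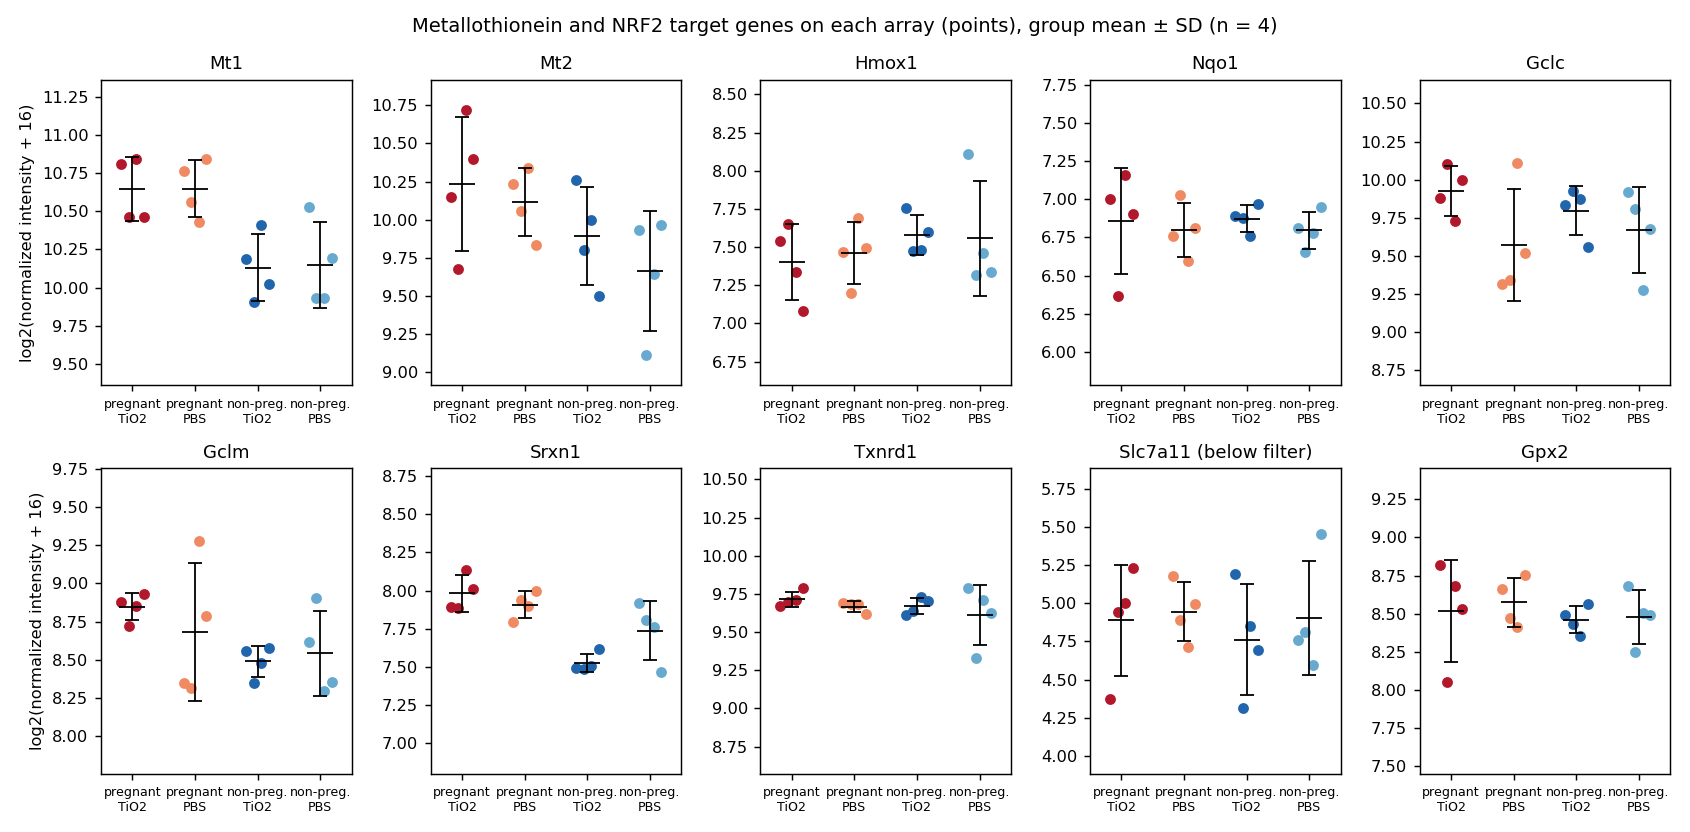
Each panel shows 1 gene as log2(normalized intensity + 16) on the vertical axis, with 1 point per array and a bar for the group mean ± SD (n = 4), for pregnant TiO2, pregnant PBS, non-pregnant TiO2 and non-pregnant PBS from left to right. The pregnant arrays sit high for Mt1 (means 10.64 and 10.65, against 10.13 and 10.15 in non-pregnant), and Srxn1 in non-pregnant TiO2 (mean 7.53) lies below every pregnant array.

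Mt1, a metallothionein expressed in most tissues, was higher in pregnant lung averaged over exposures, and its differences after TiO2 and after PBS were close to each other. Its level was 10.81, 10.46, 10.84 and 10.46 on the pregnant TiO2 arrays and 10.76, 10.56, 10.43 and 10.84 on the pregnant PBS arrays. It was 10.18, 9.91, 10.41 and 10.02 on the non-pregnant TiO2 arrays and 10.53, 9.93, 9.93 and 10.20 on the non-pregnant PBS arrays. After TiO2 all 4 pregnant arrays lay above all 4 non-pregnant ones, while after PBS 1 non-pregnant array, replicate 1, lay among the pregnant ones. The pregnant mean exceeded the non-pregnant mean by 0.51 ± 0.11 (SE) averaged over exposures, a fold of 1.42 with a 95% interval of 1.21 to 1.66 (limma adjusted p = 0.0131). After TiO2 the difference was 0.51 ± 0.15 (adjusted p = 0.0840) and after PBS 0.50 ± 0.15 (adjusted p = 0.1595), neither past the threshold by itself. The call for the averaged difference held without any single array. It was lost when the array with conflicting labels was counted as pregnant PBS (0.40, limma adjusted p = 0.152). It was also lost when that array was left out together with the 3 arrays of unlike tissue content (0.35). In that last fit replicate 1 (10.53) alone stood for non-pregnant PBS. The Mt1 probe set belongs to a class that several transcripts can share, and the other Mt1 probe set was above the array median on 0 arrays.

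Mt2, encoded next to Mt1 and regulated in much the same way, had values that pointed the same way without passing the test. It measured 10.15, 9.68, 10.72 and 10.40 in pregnant TiO2 and 10.23, 10.06, 10.34 and 9.84 in pregnant PBS, against 10.26, 9.80, 10.0001 and 9.50 in non-pregnant TiO2 and 9.93, 9.12, 9.64 and 9.96 in non-pregnant PBS. All 4 groups overlapped, and the range over 16 arrays, 1.60, was the widest among the 10 genes. The averaged difference was 0.40 ± 0.16 (95% interval 0.06 to 0.74, limma adjusted p = 0.177), with 0.34 ± 0.23 after TiO2 and 0.45 ± 0.23 after PBS. It passed with the 3 arrays of unlike tissue content left out (0.56, adjusted p = 0.0473).

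Srxn1, the sulfiredoxin that returns over-oxidised peroxiredoxins to use, was higher in pregnant lung averaged over exposures and, taken by exposure, after TiO2. The pregnant TiO2 arrays read 7.89, 7.88, 8.14 and 8.01 and the pregnant PBS arrays 7.79, 7.94, 7.90 and 8.00. The non-pregnant TiO2 arrays read 7.50, 7.48, 7.50 and 7.62, and the non-pregnant PBS arrays 7.92, 7.81, 7.76 and 7.47. Every non-pregnant TiO2 array was below every pregnant array of either exposure, whereas the non-pregnant PBS arrays spread across both ranges. Srxn1 was higher in pregnant mice by 0.46 ± 0.10 after TiO2 (fold 1.37, 95% interval 1.19 to 1.58, limma adjusted p = 0.0276) and by 0.31 ± 0.07 averaged over exposures (fold 1.24, 1.13 to 1.37, adjusted p = 0.0148). After PBS alone the difference was 0.17 ± 0.10 (adjusted p = 0.522). TiO2 against PBS gave 0.07 ± 0.10 in pregnant and -0.21 ± 0.10 in non-pregnant mice (limma adjusted p = 0.477), and the difference between these responses was 0.29 ± 0.13 (adjusted p = 0.454).

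The averaged Srxn1 call held without any single array. It was lost with all 4 arrays in doubt left out (0.24), when replicate 1 (7.92) alone stood for non-pregnant PBS. The call after TiO2 was lost without any 1 of 6 arrays, pregnant TiO2 replicates 1, 3 and 4 and non-pregnant TiO2 replicates 1, 2 and 3, with differences of 0.41 to 0.49 over all 16 single omissions and adjusted p up to 0.0806. The called Srxn1 probe set is of the same class as that of Mt1, which several transcripts can share. There are 3 further Srxn1 probe sets, whose averaged differences in a fit of every probe set were 0.25, 0.20 and 0.16, above 0 and not past the threshold (adjusted p of 0.296 to 0.411). In the same order, these 3 differed by 0.21, 0.22 and 0.17 between pregnant and non-pregnant mice after TiO2, with overlapping groups. For TiO2 against PBS in non-pregnant mice they gave 0.07, 0.22 and -0.08, where the called probe set gave -0.21. For the difference of responses they gave -0.08, 0.03 and 0.02, where the called probe set gave 0.29. None of these 3 passed. With the mean of the Srxn1 probe sets the difference after TiO2 was 0.26 (limma adjusted p = 0.0739).

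Txnrd1, the cytosolic thioredoxin reductase, varied least among the 10 genes, with a range of 0.45 over 16 arrays. It averaged 9.71 ± 0.05 in pregnant TiO2 and 9.67 ± 0.03 in pregnant PBS, against 9.67 ± 0.05 in non-pregnant TiO2 and 9.61 ± 0.20 in non-pregnant PBS (SD, n = 4 each). The averaged pregnancy difference was 0.05 ± 0.06, with a 95% interval of -0.08 to 0.18. A second Txnrd1 probe set had the opposite sign (-0.27 ± 0.21), and neither passed. For TiO2 in non-pregnant mice this second probe set gave 0.56 ± 0.30, beside 0.06 ± 0.09 for the first, again without a call.

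Gclm, the modifier subunit of glutamate-cysteine ligase, read 8.88, 8.72, 8.85 and 8.93 in pregnant TiO2 and 8.35, 8.31, 9.28 and 8.79 in pregnant PBS. The non-pregnant values were 8.56, 8.35, 8.48 and 8.57 after TiO2 and 8.62, 8.90, 8.30 and 8.35 after PBS. After TiO2 the pregnant arrays all lay above the non-pregnant ones, and after PBS both groups covered a wide and shared range. Gclm, Mt1 and Srxn1 were the 3 of 9 members whose groups did not overlap after TiO2, all higher in pregnant mice, against 9.56% of genes. The difference after TiO2 was 0.36 ± 0.18 (limma adjusted p = 0.272) and averaged over exposures 0.25 ± 0.13 (adjusted p = 0.297). It passed after TiO2 only when the PBS groups were left out of the fit (0.36, adjusted p = 0.0427). The second Gclm probe set was also higher on all 4 pregnant arrays after TiO2, by 0.26 ± 0.13, and was not called.

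Gclc, the catalytic subunit of the same enzyme, read 9.88, 10.11, 9.73 and 9.9996 in pregnant TiO2 and 9.31, 9.34, 10.11 and 9.52 in pregnant PBS. In non-pregnant mice it read 9.83, 9.92, 9.87 and 9.56 after TiO2 and 9.92, 9.81, 9.28 and 9.67 after PBS. In pregnant PBS 3 arrays lay below all pregnant TiO2 arrays, and replicate 3 was the highest of all 16. With TiO2 against PBS in pregnant mice the difference was 0.36 ± 0.17 (95% interval of the fold 0.998 to 1.64, limma adjusted p = 0.762), the widest TiO2 difference of the 9 genes. Without pregnant PBS replicate 3 it was 0.54 (adjusted p = 0.463). In non-pregnant mice it was 0.13 ± 0.17. The second Gclc probe set gave 0.06 ± 0.13 for TiO2 in pregnant and -0.03 ± 0.13 in non-pregnant mice. The averaged pregnancy difference was 0.02 ± 0.12, and that of the second probe set 0.04 ± 0.09.

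Slc7a11, the cystine transporter subunit, read 4.38, 4.94, 5.0032 and 5.23 in pregnant TiO2 and 5.18, 4.89, 4.72 and 4.99 in pregnant PBS. It read 5.19, 4.32, 4.85 and 4.69 in non-pregnant TiO2 and 4.76, 4.81, 4.60 and 5.45 in non-pregnant PBS, with every group overlapping every other. In a fit without the filter its differences lay between -0.14 and 0.13, each with adjusted p of at least 0.831, and at this signal a difference would be understated.

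Gpx2, a glutathione peroxidase best known in epithelium of the gut, averaged 8.52 ± 0.33 in pregnant TiO2 and 8.57 ± 0.16 in pregnant PBS, against 8.46 ± 0.09 in non-pregnant TiO2 and 8.48 ± 0.18 in non-pregnant PBS (SD, n = 4 each). Its averaged pregnancy difference was 0.08 ± 0.10 (95% interval -0.14 to 0.29). The quinone reductase Nqo1 averaged 6.86 ± 0.35 in pregnant TiO2 and 6.80 ± 0.18 in pregnant PBS, against 6.87 ± 0.09 in non-pregnant TiO2 and 6.80 ± 0.12 in non-pregnant PBS. Its averaged pregnancy difference was -0.01 ± 0.10 (95% interval -0.22 to 0.20).

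The lowest Gpx2 value (8.05) and the lowest Nqo1 value (6.36) both came from pregnant TiO2 replicate 2, the array with almost no squamous signal, whose mean log2 over the 6 squamous markers was 4.97. Of the other 15 arrays, non-pregnant PBS replicate 2 was the lowest both for Gpx2 (8.25) and for the squamous markers (9.06). For Nqo1 the lowest of these 15 was pregnant PBS replicate 3 (6.59), whose squamous mean was 9.86. Pearson r of Nqo1 with the squamous mean was 0.73 over all arrays and 0.49 without pregnant TiO2 replicate 2. For Gpx2 it was 0.75 and 0.67. Without pregnant TiO2 replicate 2 the TiO2 difference in pregnant mice was 0.22 ± 0.11 for Nqo1, against 0.06 ± 0.14 with it, and 0.10 ± 0.11 for Gpx2, against -0.05 ± 0.14. Neither passed. Pregnant TiO2 replicate 2 was also the lowest for 6 striated muscle markers (mean log2 6.09), followed by non-pregnant PBS replicate 2 (9.53). The part of squamous or muscle tissue in these 2 genes was not tested.

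**Figure D2:**
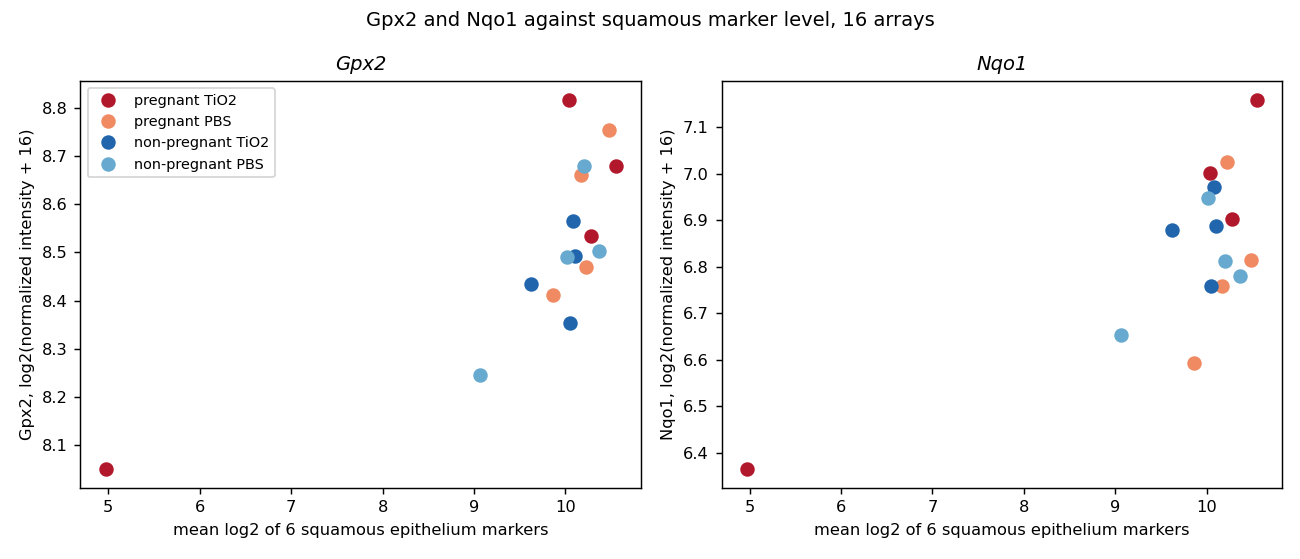
Gpx2 (left) and Nqo1 (right) on each of 16 arrays, as log2(normalized intensity + 16), are plotted against the mean log2 level of 6 squamous epithelium markers. The single point at 4.97 is pregnant TiO2 replicate 2, which has the lowest value of both genes, 8.05 and 6.36.

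Hmox1, the inducible haem oxygenase often used as a marker of oxidative stress, showed no called difference in any comparison. It read 7.54, 7.65, 7.34 and 7.08 in pregnant TiO2 and 7.47, 7.20, 7.69 and 7.49 in pregnant PBS, against 7.75, 7.48, 7.48 and 7.60 in non-pregnant TiO2 and 8.11, 7.32, 7.46 and 7.34 in non-pregnant PBS. All groups overlapped. The highest array of all 16 was a non-pregnant PBS array, replicate 1, and the lowest a pregnant TiO2 array, replicate 4. For TiO2 against PBS, the 95% interval of the Hmox1 fold was 0.749 to 1.23 in pregnant and 0.791 to 1.30 in non-pregnant mice. The averaged pregnancy difference was -0.13 ± 0.12 (adjusted p = 0.577). With all 4 arrays in doubt left out it was -0.45 and passed (adjusted p = 0.0437), with a single array then standing for non-pregnant PBS.

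Across the members, TiO2 against PBS gave differences of -0.06 to 0.36 in pregnant mice, with a median of 0.06 beside -0.00 over all genes. In non-pregnant mice they were -0.21 to 0.23, with a median of 0.02 beside -0.02. For Mt1 the 95% interval of the fold was 0.799 to 1.25 in pregnant and 0.791 to 1.24 in non-pregnant mice. For Mt2, which varied more, it was 0.779 to 1.51 in pregnant and 0.839 to 1.63 in non-pregnant mice. At an unadjusted p under 0.05, 0 of 9 members passed in pregnant mice (795 of 12369 genes, 6.43%), and 1 of 9, Srxn1, passed in non-pregnant mice (1223 genes, 9.89%) and in the difference of responses (1352 genes, 10.9%).

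**Figure D3:**
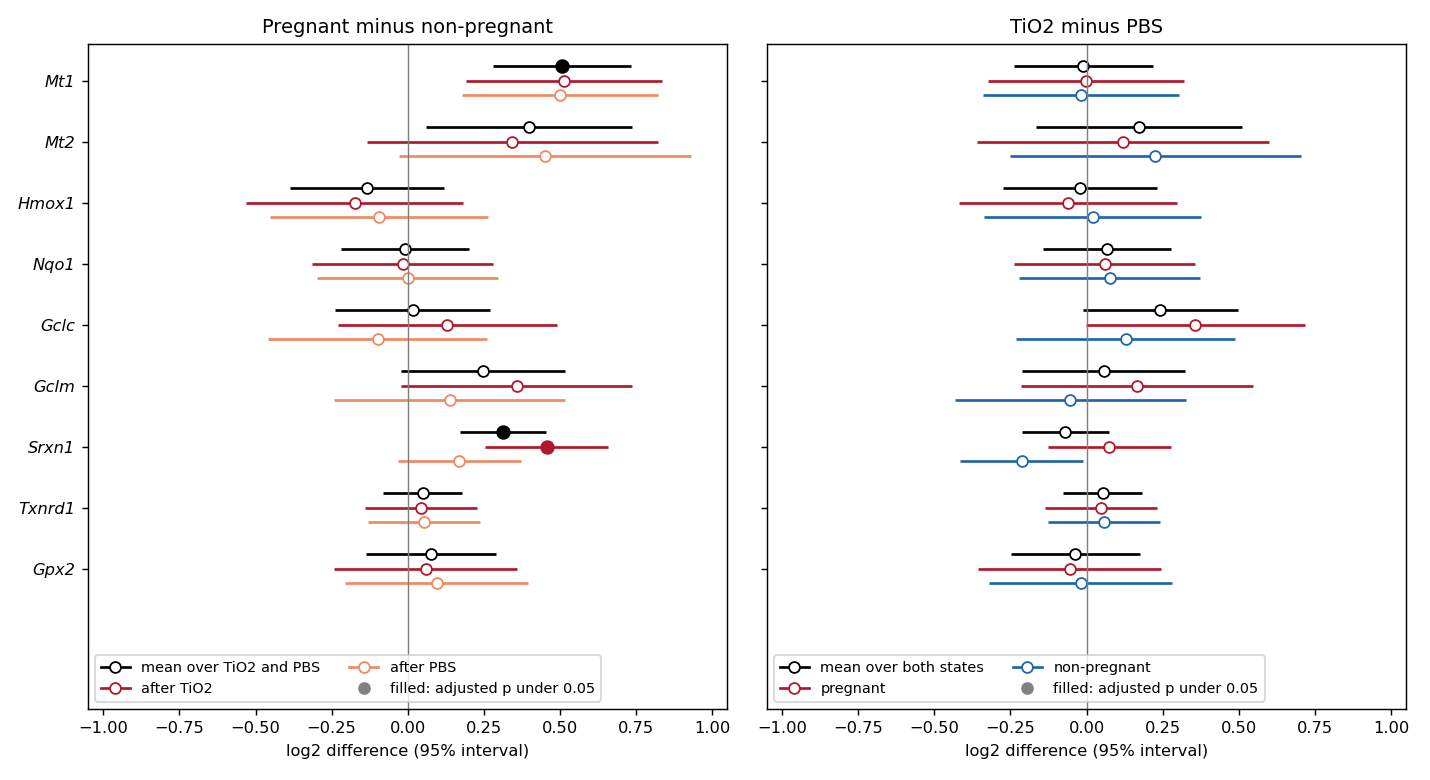
Log2 differences (points) with 95% intervals (lines) for the 9 tested genes, pregnant minus non-pregnant on the left and TiO2 minus PBS on the right, with filled points at an adjusted p under 0.05. Filled points stand at Mt1 (0.51) and Srxn1 (0.31) averaged over exposures and at Srxn1 (0.46) after TiO2, and the TiO2 panel has none.

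The wider pathway was read from 8 lists of 91 genes, 82 of which were tested. Averaged over exposures, 4 of the 82 were higher and 1 lower in pregnant lung (6.1%, beside 4.42% of all genes), the list median being 0.07 beside 0.01. After TiO2 2 were higher (2.44%, beside 1.88%), and after PBS and in the TiO2 comparisons none passed. The 6 genes called in these lists (Slc11a1, Blvra, Osgin1, Akr1b8, Gpx4 and Sesn1) all lost their calls with the intensities as deposited, with adjusted p of 0.310 to 0.9999.

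The NRF2 regulators had 0 of 9 called in every comparison. Nfe2l2 averaged 11.05 ± 0.06 in pregnant TiO2, 11.05 ± 0.10 in pregnant PBS, 11.11 ± 0.11 in non-pregnant TiO2 and 11.02 ± 0.12 in non-pregnant PBS (SD, n = 4 each). Keap1, its inhibitor, had the smallest p of the list for pregnancy, at 0.16 ± 0.07 averaged (adjusted p = 0.239) and 0.28 ± 0.10 after TiO2 (adjusted p = 0.163). NRF2 activity is set mainly by protein stability, which these arrays do not measure. The metal factor Mtf1, at -0.01 ± 0.09 for pregnancy, was not called either.

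The haem and iron genes held 2 higher and 0 lower of 8 tested for pregnancy averaged over exposures, beside 3.19% of all genes higher. Slc11a1, a metal transporter of phagocyte vesicles, averaged 7.41 ± 0.16 in pregnant TiO2 and 7.51 ± 0.12 in pregnant PBS, against 7.01 ± 0.06 in non-pregnant TiO2 and 7.10 ± 0.23 in non-pregnant PBS, a difference of 0.41 ± 0.08 (limma adjusted p = 0.00791). Its call held without any single array and was lost only as deposited (0.41, adjusted p = 0.409) among 12 alternatives. Blvra, a biliverdin reductase that acts after haem oxygenase, was higher by 0.22 ± 0.06 (adjusted p = 0.0346). Its call held in 7 of 12 alternatives. It was lost without the filter on low values (adjusted p = 0.0608), with 3 (0.101) and 4 arrays left out (0.291), with the conflicting array counted as pregnant (0.174) and as deposited. Leaving out single arrays, Blvra lost its call for 10 of 16 (adjusted p up to 0.0775), which were pregnant TiO2 replicates 1, 2 and 4, pregnant PBS replicates 1, 3 and 4, non-pregnant TiO2 replicates 1 and 3, and non-pregnant PBS replicates 2 and 4. The iron exporter Slc40a1 had the smallest p of the list for TiO2 in non-pregnant mice, 8.10, 7.83, 8.06 and 7.81 after TiO2 against 8.21, 8.63, 8.67 and 8.33 after PBS. The TiO2 arrays all lay below the PBS arrays, as in 3.11% of genes, and the difference was -0.51 ± 0.12 (adjusted p = 0.275).

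The detoxification genes also held 2 higher and 0 lower, of 14 tested, in the same comparison, beside the same 3.19% of all genes higher. Osgin1, a stress-induced growth inhibitor known as an NRF2 target, averaged 7.81 ± 0.06 in pregnant TiO2 and 7.78 ± 0.10 in pregnant PBS, against 7.44 ± 0.11 in non-pregnant TiO2 and 7.52 ± 0.22 in non-pregnant PBS. The difference was 0.31 ± 0.07 (limma adjusted p = 0.0201). The call held without any single array and was lost only as deposited (0.32, adjusted p = 0.775) among 12 alternatives. Akr1b8, an aldo-keto reductase, was higher by 0.25 ± 0.06 averaged (adjusted p = 0.0351) and by 0.39 ± 0.09 after TiO2 (adjusted p = 0.0391). Its pregnant TiO2 arrays (9.37, 9.26, 9.10 and 9.19) all lay above the pregnant PBS arrays (9.04, 8.95, 9.07 and 8.97), as in 2.05% of genes, a TiO2 difference of 0.22 ± 0.09 that did not pass (adjusted p = 0.762). The averaged Akr1b8 call held in 7 of 16 single omissions and the call after TiO2 in 5 of 16, with adjusted p up to 0.0733 and 0.125. The averaged call was lost without pregnant TiO2 replicates 1, 2 or 4, pregnant PBS replicates 1, 3 or 4, non-pregnant TiO2 replicates 1 or 4, or non-pregnant PBS replicate 4, and the call after TiO2 without any array of either TiO2 group or without pregnant PBS replicates 1, 3 or 4. Under alternatives the averaged call held in 7 of 12 and was lost without the filter (adjusted p = 0.0601), with 3 (0.103) and 4 arrays left out (0.216), with the conflicting array as pregnant (0.0793) and as deposited (0.868). The call after TiO2 held in 7 of 13 and was lost under the same 5 alternatives and in a fit of the TiO2 groups alone (adjusted p of 0.0539 to 0.966).

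Among the glutathione genes 0 of 21 passed for pregnancy averaged over exposures beside 4.42% of all genes. Above 0 lay 18 of 21, beside 53.9% of all genes, with a median of 0.07 beside 0.01. After TiO2, Gpx4, which reduces lipid peroxides in membranes, was the 1 called (1 of 21, beside 1.37% of all genes higher), at 11.86 ± 0.17 in pregnant against 11.44 ± 0.06 in non-pregnant mice, a difference of 0.43 ± 0.10 (adjusted p = 0.0372). This call was lost without any 1 of 7 arrays, all 4 of non-pregnant TiO2 and pregnant TiO2 replicates 1, 2 and 4 (adjusted p up to 0.120). It held in 8 of 13 alternatives and was lost with the mean of probe sets (0.30, adjusted p = 0.186), without the filter (0.0629), with 3 arrays left out (0.0561), with the conflicting array as pregnant (0.0546) and as deposited (0.938). The thioredoxin and peroxiredoxin genes held 1 lower and 0 higher of 9 tested for pregnancy averaged, beside 4.42% of all genes in either direction. Sesn1, a sestrin induced by stress through p53, was lower in pregnant lung by -0.47 ± 0.11 (adjusted p = 0.0219). It averaged 9.51 ± 0.21 in pregnant TiO2 and 9.48 ± 0.33 in pregnant PBS, against 10.07 ± 0.22 in non-pregnant TiO2 and 9.87 ± 0.14 in non-pregnant PBS, and its call was lost without non-pregnant TiO2 replicate 1 (-0.44, adjusted p = 0.0517). It was also lost with the conflicting array counted as pregnant (-0.44, adjusted p = 0.0875), with 4 arrays left out (-0.52, adjusted p = 0.0588) and as deposited (-0.44, adjusted p = 0.310).

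No superoxide or peroxide enzyme (0 of 4 tested) and no NADPH-supply enzyme (0 of 5) passed in any comparison. The 5 NADPH enzymes all lay above 0 for pregnancy averaged (median 0.15, with 53.9% of all genes above 0) and all below 0 for TiO2 averaged (median -0.14, with 46.2% of all genes above 0), without a call. The 3 tested fat markers also lay above 0 for pregnancy averaged (median 0.65) and below 0 for TiO2 averaged (median -0.95), without a call. Sums over 4 fat markers were 2064 to 10563 in pregnant TiO2 and 4238 to 10702 in pregnant PBS. In non-pregnant mice they were 1219 to 5883 after TiO2 and 5352 to 11064 after PBS. The part of fat in the values of the NADPH enzymes was not tested. Of 12 metal-handling genes none passed. The zinc exporter Slc30a1, an MTF1 target, was at 0.25 ± 0.08 (adjusted p = 0.326) for TiO2 without pregnancy and at 0.29 ± 0.08 for pregnancy after PBS (adjusted p = 0.113). Mt4, the metallothionein of stratified squamous epithelium, read 11.30, 4.43, 11.28 and 11.44 in pregnant TiO2, where replicate 2 is again the array without squamous signal, and between 10.31 and 11.44 on the 12 arrays of the other groups.

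**Figure D4:**
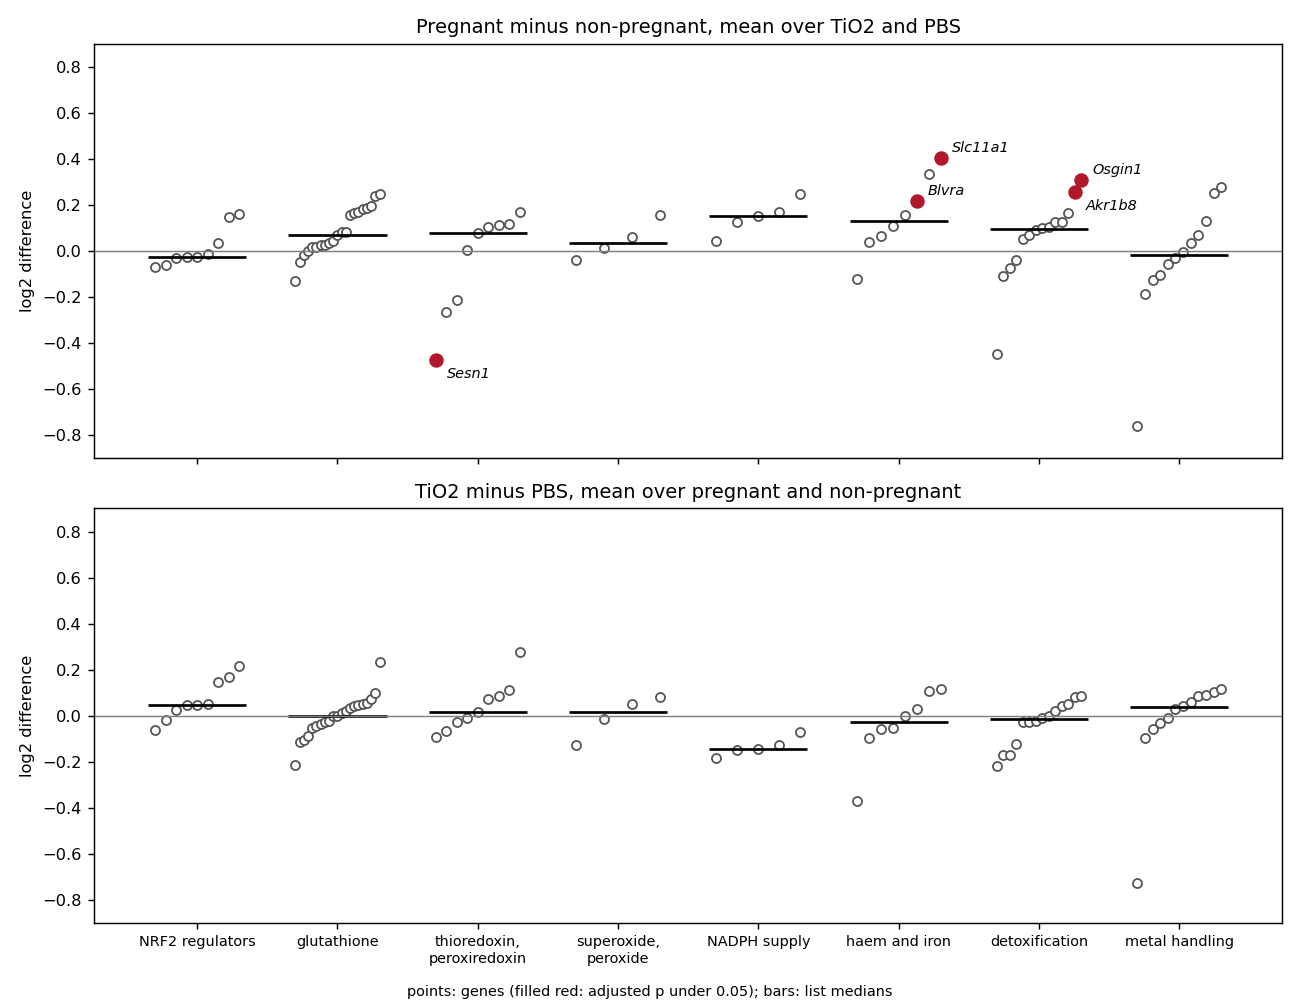
Each point is 1 gene of the 8 pathway lists and each bar a list median, as log2 differences of pregnant minus non-pregnant (upper panel) and TiO2 minus PBS (lower panel), each averaged over the other factor, with red points at an adjusted p under 0.05. Slc11a1 (0.41), Osgin1 (0.31), Akr1b8 (0.25) and Blvra (0.22) are red above 0 and Sesn1 (-0.47) below it, and the lower panel has no red point.

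Markers of inflammatory and red cells also differed with pregnancy. For neutrophils, 9 of 10 markers were tested, 9 of 9 lay above 0 for pregnancy averaged and 6 passed as higher (S100a8, S100a9, Mmp8, Mmp9, Csf3r and Ltf), beside 3.19% of all genes. Their summed normalized intensity was 6192 to 7714 in pregnant TiO2 and 9916 to 15197 in pregnant PBS, against 3398 to 5381 in non-pregnant TiO2 and 3906 to 5672 in non-pregnant PBS. For macrophages 7 of 8 were tested, 7 of 7 lay above 0 and 3 passed (Marco, Chil3 and Cd68), with sums of 7734 to 8335 in pregnant TiO2 and 8251 to 9983 in pregnant PBS, against 5928 to 7425 in non-pregnant TiO2 and 6321 to 7136 in non-pregnant PBS. Of 6 red cell markers 2 were tested and both lay above 0: Slc4a1, the anion exchanger of red cells, passed as higher (0.67 ± 0.15, adjusted p = 0.0184), and Alas2, which starts haem synthesis in red cell precursors, did not (0.39 ± 0.15, adjusted p = 0.155). The sum over the 4 red cell markers named on the array was 1840 to 2470 in pregnant TiO2 and 1422 to 2418 in pregnant PBS, against 1171 to 1949 in non-pregnant TiO2 and 924 to 1698 in non-pregnant PBS. Ciliated cell markers, a list drawn up after seeing the data, summed to 1705 to 2227 in pregnant TiO2 and 1409 to 1949 in pregnant PBS, against 1335 to 1488 in non-pregnant TiO2 and 1385 to 1695 in non-pregnant PBS. Of 10 ciliated markers 8 were tested, 8 of 8 lay above 0 and 1, Cfap126, passed as higher. For pregnancy averaged, 53.9% of all genes lay above 0 and 3.19% passed as higher, the shares to set beside each of these lists. The sum of 6 glucocorticoid target genes was 9465 to 13092 in pregnant TiO2 and 10570 to 13000 in pregnant PBS. In non-pregnant mice it was 14735 to 15473 after TiO2 and 9294 to 13833 after PBS. Klf9, 1 of the 6, was lower in pregnant mice after TiO2 (-0.33, limma adjusted p = 0.0491), close to the threshold. The calls of marker genes in this paragraph were not followed through the alternative fits or single omissions. Glycam1, the marker used for lymph node venules, was at 2 to 1719 in pregnant TiO2, with replicate 2 the lowest, and 681 to 1644 in pregnant PBS. It was at 2 to 610 in non-pregnant TiO2 and 466 to 1506 in non-pregnant PBS. The part of these cells, of fat or lymph node tissue, or of glucocorticoid signalling, in the Mt1, Srxn1 and Slc11a1 differences was not tested. In whole-lung RNA fewer cells of a type and less RNA per cell cannot be told apart.

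The 9 tested genes were compared with each other in pairs. Of 36 pairs over 16 arrays, 27 had r above 0, with a median of 0.18 and a range of -0.37 to 0.69, with all values of an array sharing its RNA and scaling. No such values were computed for pairs drawn from all genes, so whether these are high or low for these arrays is not known. The highest Pearson r were for Nqo1 with Gpx2 (0.69), Mt1 with Srxn1 (0.66), Mt1 with Mt2 (0.63) and Gclc with Gclm (0.62). Spearman rho was 0.56, 0.75, 0.57 and 0.61 in the same order. Without the 2 arrays farthest from the median of the first-named gene, r was 0.42, 0.67, 0.53 and 0.49. By permutation tests with Benjamini-Hochberg adjustment over the 36 pairs, 0 passed on r. The unadjusted p of r was 0.00364, 0.00658, 0.00775 and 0.0104 for these 4 pairs in the same order, and the adjusted p was 0.0930 for the first 3 and 0.0936 for Gclc with Gclm. On rho, Mt1 with Srxn1 had an adjusted p of 0.0475 and the other 3 at least 0.163. The permutations shuffled all 16 arrays without regard to group. Differences between group means therefore enter these p-values, as for Mt1 and Srxn1, which were both called for pregnancy. Taken as deviations from the group means, r was 0.75 for Nqo1 with Gpx2, 0.18 for Mt1 with Srxn1, 0.43 for Mt1 with Mt2 and 0.70 for Gclc with Gclm. The value for Mt1 with Srxn1 was thus lower within groups than over all arrays, and that for the ligase subunits was not.

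For the 4 members with the widest range, the genes of most similar pattern among the 12369 tested genes, the member itself left out, were named by Pearson r over 16 arrays. Picking the highest of so many r over 16 arrays gives high values by itself, and these values were not tested. For Mt2 these were Pde12 (0.87), Has1 (0.86) and Rgs18 (0.85), and for Slc7a11, which was above the array median on no array, Fbxo8 (0.79), Fli1 (0.75) and Mtpap (0.74). For Hmox1 they were Zbtb39 (0.83), Hykk (0.81) and Mcfd2 (0.79), and for Gclm Wfdc2 (0.82), Dpp9 (0.82) and Slc25a23 (0.80). Mt1, the next by range, was added after its values were seen, and had Ppil6 (0.90), Cfap65 (0.88) and Drc3 (0.86), with 0.77, 0.69 and 0.68 within groups for the same 3 genes.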

How the data were processed

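Total lung RNA was hybridised to 1-colour Affymetrix whole-genome mouse arrays, 16 in all. The deposited table holds linear intensity values, 1 per probe set and array. GCOS, MAS5 and RMA are named, per the submitters' processing notes, without versions or a statement of which one gave these intensities. The deposited intensity values are not scaled between arrays.

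From the 45101 probe sets, 64 controls were removed, the rest were quantile-normalized and log2(value + 16) was taken. Probe sets above the array median on at least 4 of 16 arrays were kept (23995). Symbols came from the platform annotation, updated by Entrez identifier against the RefSeq table of GRCm38.p6 (34958 probe sets with 1 symbol, 34754 matched, 932 with several, 9160 with none listed); the single-symbol probe set with the highest mean stood for each of 12369 genes. limma 3.58.1 (lmFit and eBayes, R 4.3.3) fitted 4 group means with 12 residual degrees of freedom, and Benjamini-Hochberg adjustment ran over all genes within each of 7 contrasts. Intervals are 95%. The code was tested on simulated data. The members, gene lists and tests were chosen with earlier results of these data known. All members were named; from each pathway list, genes past the threshold were named, up to 4 per contrast, and otherwise up to 2 with the smallest p. Genes of similar pattern were the 3 with the highest r for each of the 4 members of widest range, Slc7a11 among them, and for Mt1, added later. Replicate numbers are accession order and pair nothing. Promoter motifs were searched with Python 3.11.15. Alternatives in scaling, filter, pseudocount, probe set choice, model and arrays are given at the end.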

Additional observations from a re-analysis of the deposited data

Results flagged for a closer look

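In 40 sets of 4 arrays (10 genes in 4 groups), the gap of the highest or lowest array to its neighbour was compared with Dixon's 95% critical value for 4 samples, which chance exceeds in about 1 in 20 groups. Only 2 sets exceeded it. Srxn1 on non-pregnant TiO2 replicate 4 was 7.62, above the other 3 arrays of its group (7.48 to 7.50). Txnrd1 on pregnant PBS replicate 4 was 9.62, below the other 3 arrays of its group (9.68 to 9.69). For the difference of TiO2 responses between pregnant and non-pregnant mice, 0 of 9 members passed.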

How the results depend on the processing

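No paired analysis was possible because replicate numbers are only accession order. No called member value reversed. The Mt1 and Srxn1 calls averaged over exposures held in 9 and 10 of 12 alternatives and in 16 of 16 single omissions (0.47 to 0.57 and 0.27 to 0.34), and the Srxn1 call after TiO2 held in 11 of 13 alternatives. As deposited, the median of all genes lay between -0.25 and 0.17 by comparison and every member call was lost: Mt1 0.56 (adjusted p = 0.108), Srxn1 0.33 (0.665) averaged and 0.34 (0.938) after TiO2. Mt1 after TiO2 passed with array weights (0.46, adjusted p = 0.0378) and with the 4 arrays in doubt out (0.58, 0.0385), a fit in which non-pregnant PBS has 1 array, assumed to vary like the other groups. Of 1800 member values, 159 that were called in neither setting changed sign, none of them over 0.23 in size as reported.

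Genes called for pregnancy averaged were 547 (395 higher), and 1098 without the 3 arrays of unlike tissue content and 935 with array weights. They were 109 with the conflicting array as pregnant and 102 (88 higher) as deposited. Members called were 2, and 3 without the 3 arrays of unlike tissue content, 1 with the conflicting array as pregnant and 0 as deposited. With 4 arrays out the averaged differences of Mt1 (0.35) and Srxn1 (0.24) lost their calls, and that of Hmox1 was -0.45. After TiO2 genes were 233, and 450 with 3 and 720 with 4 arrays out, 1505 with array weights, 534 from the TiO2 groups alone, 141 without the filter, 104 with the conflicting array as pregnant and 21 as deposited; members were 1, and 2 with 4 arrays out, array weights or the TiO2 groups alone, and 0 with mean probe sets or as deposited. After PBS genes were 129 (100 higher), and 294 with 3 and 266 with 4 arrays out, 50 from the PBS groups alone, 38 (38 higher) as deposited and 7 with the conflicting array as pregnant. For TiO2 all counts were 0, with 1 in pregnant mice as deposited or with array weights; 53 in non-pregnant mice with 4 arrays out, and 1 without the filter or from those groups alone; 4 and 61 for the difference of responses with 3 and 4 arrays out, and 1 without the filter; and 2 averaged with 4 arrays out, 1 as deposited. Leaving out single arrays gave 381 to 884 genes for pregnancy averaged, 52 to 387 after TiO2, 72 to 217 after PBS, 0 to 1 for TiO2 in pregnant, 0 to 5 in non-pregnant, 0 to 2 averaged and 0 to 2 for the difference, and 0 to 1 members after TiO2. The causes were not tested.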
